A study of Mus musculus with 24 samples.

Results

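Inguinal fat pads carry a lymph node inside the fat, and 6 inguinal pads from the adipose FoxO1 knockout study fell into pads with and pads without lymphocyte transcripts. The level of Cd79a, a signalling subunit of the B cell antigen receptor, averaged over the 2 libraries of each pad, chose the classes: 4 pads above 20 FPKM and 2 pads below 5 FPKM. The pads were thus chosen by a measured value, that of Cd79a. FPKM is the read number of a gene divided by its length and by the library's total. The 6 pads, read as 12 libraries, are the inguinal part of 12 pads and 24 libraries in all. The mice were floxed FoxO1 controls and conditional adipose FoxO1 knockouts (genotype floxed FoxO1), and no treatment is given. Control pads with lymphocyte transcripts came from mice M6 and M10 and the control pad without came from M7. Knockout pads with lymphocyte transcripts came from mice M5 and M12 and the knockout pad without came from M9. Genotype and class are therefore balanced, with 2 pads with and 1 pad without in each genotype. The sources name no Cre driver, age, sex or deleted exon, and do not say whether nodes were cut out. Mouse numbers were read from library names, since the labels list 6 samples per group without tying them to animals. P-values therefore measure only the spread between these pads.

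Lymph nodes gather naive lymphocytes from blood through high endothelial venules, whose sulphated mucins hold passing lymphocytes. Inside the node, reticular stromal cells make Ccl19 and Ccl21 in the T cell zone and Cxcl13 in the follicle, which act on Ccr7 and Cxcr5. Lymphotoxin made by lymphocytes keeps this stroma in place. A mouse inguinal pad holds a node that can be left in or cut away at dissection, whereas gonadal fat holds small lymphoid clusters in place of a node.

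Foxo1, the targeted gene, stood at 19.7, 14.5 and 13.0 FPKM in control pads M6, M10 and M7 and at 4.12, 5.69 and 2.49 FPKM in knockout pads M5, M12 and M9. Every knockout pad was below every control pad, in both classes. Inguinal libraries held 14953657 to 20565394 reads assigned to genes. The 2 libraries of a pad correlated at 0.995 to 0.997 across genes, and those of M6 differed most, with Cd79a at 101 and 130 FPKM. All 6 pads held adipocyte transcripts at high level, so the labelled tissue was present in both classes: Adipoq ranged from 1510 to 2136 FPKM in pads with and stood at 2222 and 1816 FPKM in pads without.

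**Figure D1:**
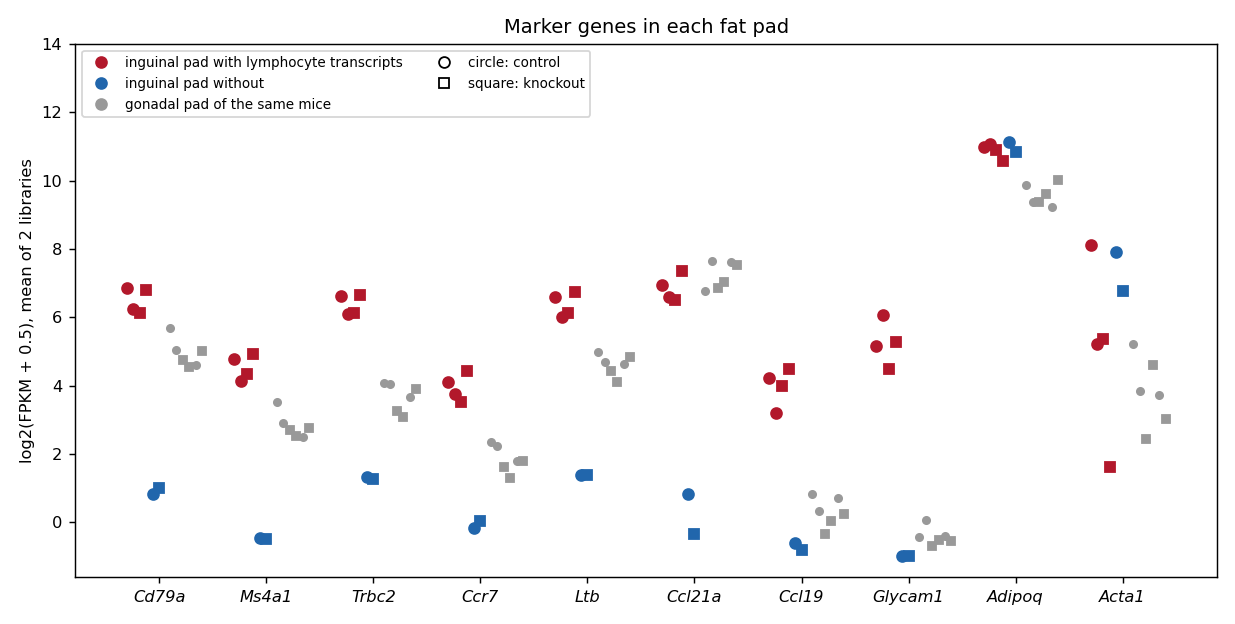
Level of 10 marker genes in each fat pad, as log2(FPKM + 0.5) of the mean of 2 libraries; red points are the 4 inguinal pads with lymphocyte transcripts, blue points the 2 inguinal pads without and grey points the 6 gonadal pads of the same mice, with circles for control and squares for knockout. Cd79a stood at 69.0 to 115 FPKM in red pads and at 1.26 and 1.5 FPKM in blue pads, while Adipoq overlapped and Glycam1 was near 0 in every gonadal pad.

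Cd79a stood at 115 FPKM in M6, 74.9 in M10, 69.0 in M5 and 110 in M12, against 1.26 in M7 and 1.5 in M9. No pad lay between the limits, and the lowest pad inside the upper class was M5. Ms4a1, which encodes CD20 and was named as the second marker, stood at 26.9, 17.1, 19.6 and 29.7 FPKM in M6, M10, M5 and M12, and at 0.23 and 0.21 FPKM in M7 and M9. These values set or follow the classes and are given as description only. No difference between the classes is tested below, because every gene of a pad was measured in the libraries that chose the classes.

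Across 13621 genes with a mean of at least 0.5 FPKM, 885 genes, or 6.5%, were at least 1 log2 unit higher in pads with lymphocyte transcripts with no overlap between the classes. Only 11 genes, or 0.0808%, met the same condition downward. Without a minimum difference, 4236 genes, or 31.1%, were higher with no overlap. These shares of all genes stand beside every list count of higher genes below. The median difference of all genes was 0.12 on the log2(FPKM + 0.5) scale, which is used for every log2 difference here and understates the change of low genes. Of the 885 genes, 363 differed by at least 2, 124 by at least 3 and 45 by at least 4 log2 units. Antigen receptor gene segments made up 162 of the 885, members of the gene lists 91 and other genes 632. The 885 genes took 1.63% to 2.81% of assigned reads in pads with and 0.526% and 0.697% in pads without. In bulk tissue, fewer cells of a type and less RNA per cell cannot be told apart.

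**Figure D2:**
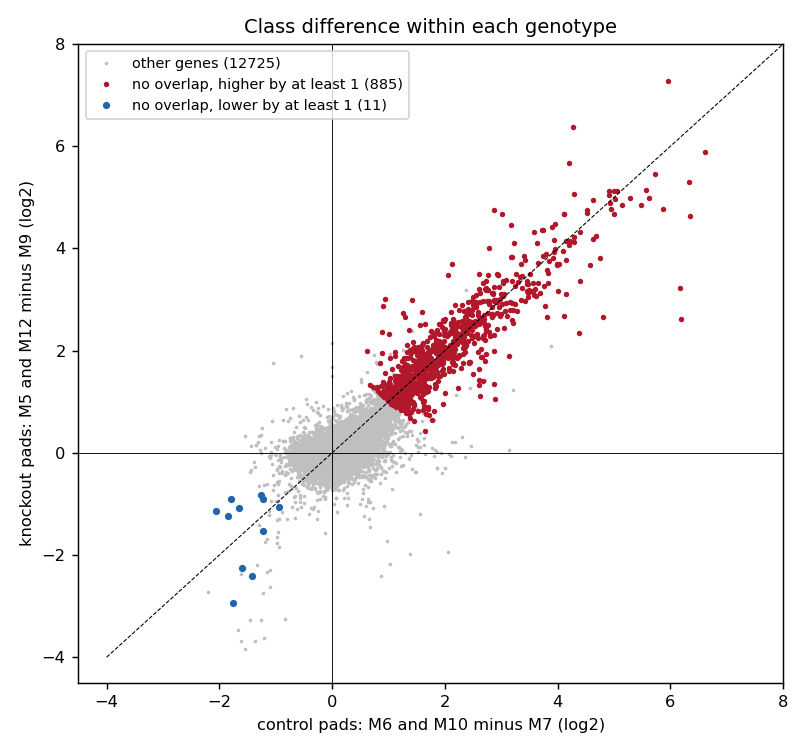
Difference between pads with and without lymphocyte transcripts (log2) in control pads on the horizontal axis and in knockout pads on the vertical axis, 1 point per gene, with a dashed line of equality. Red points are the 885 genes higher by at least 1 without overlap and blue points the 11 genes lower by at least 1 without overlap. Of the red points, 795 reach at least 1 in both genotypes.

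The difference could be taken in each genotype, and the genotypes share no pads. In control pads (M6 and M10 against M7) 1046 of 13621 genes, or 7.68%, were at least 1 log2 unit higher, and in knockout pads (M5 and M12 against M9) 912 were, or 6.7%. Both differences reached 1 for 813 genes, or 5.97%, which is 77.7% of the control list and 89.1% of the knockout list. Of the 885 genes higher by at least 1 without overlap, 795 reached 1 in both genotypes. With 1 pad without lymphocyte transcripts per genotype there is no spread for either difference.

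All 22 genes of the B cell list were higher by at least 1 without overlap, where 6.5% of all genes were. The list includes Cd79a, whose separation was fixed by the rule. The 22 genes had a median difference of 4.05 against 0.12 for all genes. Their summed level was 311 to 508 FPKM in pads with and 8.72 and 8.90 FPKM in pads without, a 47.0-fold ratio of mean sums. Cd79a itself had a 66.9-fold ratio of means. Cd79b, its partner subunit, stood at 70.1, 43.0, 46.0 and 73.9 FPKM in M6, M10, M5 and M12 and at 0.92 and 1.36 FPKM in M7 and M9. Fcmr, the Fc receptor for IgM, stood at 40.1, 26.9, 23.0 and 41.1 FPKM against 0.21 and 0.39 FPKM. The order of pads was alike for these genes, with M6 and M12 above M10 and M5. Fcer2a, or CD23, a marker of mature follicular B cells, ranged from 13.4 to 33.2 FPKM against 0.29 and 0.40. Spib, a transcription factor of the PU.1 family, ranged from 15.2 to 23.7 FPKM against 0.13 and 0.20.

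Letters of 4 promoters are shown because these genes moved together and because B cell promoters are known for octamer sites, bound by Oct factors, and sites of EBF1. Each is the 250 bases before the RefSeq start in build GRCm38.p6, 5′ to 3′ along the gene, with motif matches in capitals. Vpreb3, at chr10:75948050-75948299 on the plus strand, encodes a B cell protein that binds immunoglobulin chains and holds 1 octamer starting 45 bases before the start. Cd22, at chr7:30879029-30879278 on the minus strand, encodes an inhibitory receptor of B cells and holds 1 EBF1 match starting 49 bases before the start. Cd79a, at chr7:24897247-24897496 on the plus strand, and Glycam1, at chr15:103565082-103565331 on the minus strand, hold none of the letters searched.
Vpreb3: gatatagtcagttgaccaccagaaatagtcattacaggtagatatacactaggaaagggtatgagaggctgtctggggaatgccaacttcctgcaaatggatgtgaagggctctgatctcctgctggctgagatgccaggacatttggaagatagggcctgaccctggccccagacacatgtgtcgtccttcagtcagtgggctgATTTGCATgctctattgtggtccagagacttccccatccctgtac
Cd22: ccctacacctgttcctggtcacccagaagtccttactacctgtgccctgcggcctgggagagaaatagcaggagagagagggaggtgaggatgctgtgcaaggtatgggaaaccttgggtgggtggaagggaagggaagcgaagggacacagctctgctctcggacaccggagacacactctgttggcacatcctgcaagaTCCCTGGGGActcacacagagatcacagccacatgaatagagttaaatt
Cd79a: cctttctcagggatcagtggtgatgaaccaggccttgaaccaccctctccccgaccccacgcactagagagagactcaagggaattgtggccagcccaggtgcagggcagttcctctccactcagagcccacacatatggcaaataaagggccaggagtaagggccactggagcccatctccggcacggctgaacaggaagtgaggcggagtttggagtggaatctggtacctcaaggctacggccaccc
Glycam1: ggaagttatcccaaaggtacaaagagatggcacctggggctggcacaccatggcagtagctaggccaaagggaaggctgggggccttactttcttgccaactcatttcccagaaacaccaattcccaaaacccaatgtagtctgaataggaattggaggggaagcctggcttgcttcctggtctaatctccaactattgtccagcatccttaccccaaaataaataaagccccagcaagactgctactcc
The octamer searched was ATTTGCAT, the EBF1 motif TCCC and GGGA with 2 bases between, which reads the same on both strands, and the PU.1 motif GAGGAAGT, each on both strands of any promoter listed for a gene. Of the 22 B cell genes, 17 had a promoter in the table. Octamers occurred in 2 of these 17, or 11.8%, against 1.81% of 27025 genes with a promoter. The EBF1 letters occurred in 1 of 17, or 5.88%, against 0.914% of all, and the PU.1 letters in 2 of 17, or 11.8%, against 2.79% of all. Most other lists had no match, but some short lists had larger shares. Octamers occurred in 1 of 3 Schwann cell genes, EBF1 letters in 1 of 6 progenitor and matrix genes and PU.1 letters in 4 of 10 neutrophil genes. Counts this small do not set B cell promoters apart. No match of 1 motif overlapped a match of another in the 4 promoters printed. A match is a description of letters and no sign of binding, and no match says only that these letters are not in this window.

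Vpreb3 stood at 3.65, 3.91, 3.93 and 4.45 FPKM in M6, M10, M5 and M12 and at 0.12 and 0.41 FPKM in M7 and M9. Cd22 stood at 18.6, 13.8, 10.8 and 19.1 FPKM against 0.14 and 0.28. Both genes were picked for their promoter letters after their values were seen. Their classes did not overlap, and Vpreb3 differed less between the 4 pads with lymphocyte transcripts than Cd22 did.

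Antibody genes divided by isotype. Igkc, the kappa light chain constant region, stood at 479, 352, 302 and 601 FPKM in M6, M10, M5 and M12 and at 16.1 and 13.3 FPKM in M7 and M9. Ighm, the IgM heavy chain carried by naive B cells, stood at 266, 192, 124 and 261 FPKM against 36.8 and 71.5, a smaller difference of 1.96. Iglc2, a lambda constant region, ranged from 26.0 to 51.6 FPKM against 0.24 and 0.86. Of 8 constant regions measured, 7 were higher without overlap, with a median of 2.95. The exception was Igha, the IgA heavy chain, at 2.43 to 10.6 FPKM against 2.49 and 3.68, where the classes overlapped. It is the member of the list that fell outside and was named for that after its values were seen.

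Many variable segments were read in the 4 pads with lymphocyte transcripts. Of 53 heavy chain variable segments that passed the filter, 51 were higher without overlap, as were 64 of 65 kappa, 3 of 3 lambda and 19 of 19 T cell receptor beta variable segments. Those that passed did so mainly through the pads where they are high, so these counts describe the filter as well as the pads. Heavy chain segments drew 1001 to 2815 reads per pad in pads with and 46 and 55 reads in pads without. Thinned to 46 reads, pads with showed 29.1 to 30.5 segments and pads without 21.0 and 24.2. In M5, Igkv1-117 took 19.3% of kappa variable reads, the largest share of 1 kappa segment in the pads with. Segments of a family are near copies, and the sources do not say how reads matching several of them were counted.

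T cell transcripts accompanied the B cell transcripts. All 24 T cell genes measured were higher by at least 1 without overlap, where 6.5% of all genes were. Their median was 3.37, and their sum was 285 to 445 FPKM against 12.1 and 12.9. Their mean log2 level was -0.15 in both pads without, so members passed the filter largely through the pads where they are high. The B cell, homing and stromal counts share this limit. Trbc2, a constant region of the T cell receptor beta chain, stood at 98.6, 68.6, 68.6 and 101 FPKM in M6, M10, M5 and M12 and at 1.99 and 1.91 FPKM in M7 and M9. Trbc1, the other beta constant region, ranged from 33.9 to 54.0 FPKM against 0.65 and 1.07, and the 2 copies may share reads. Trac, the alpha constant region, ranged from 25.8 to 43.1 FPKM against 1.38 and 1.98. Cd3g, a CD3 chain, ranged from 20.03 to 31.2 FPKM against 0.49 and 0.59. The ratio of summed T cell to summed B cell FPKM was 0.74 to 0.92 in the 4 pads. Cd4 to Cd8a, markers of helper and cytotoxic T cells, stood in a ratio of 1.14, 0.99, 0.95 and 1.65 in M6, M10, M5 and M12, so M12 was apart from the other 3.

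Genes that mark naive cells on the way through nodes were among them. Ccr7, the receptor for Ccl19 and Ccl21, stood at 16.7, 13.1, 11.01 and 20.9 FPKM in M6, M10, M5 and M12 and at 0.39 and 0.52 FPKM in M7 and M9. Dapl1, a transcript of naive T cells, ranged from 5.47 to 6.76 FPKM against 0.0922 and 0.34, and Satb1, a chromatin organiser, from 4.27 to 7.04 FPKM against 1.57 and 1.65. All 5 homing genes measured were higher without overlap. Their summed level was 0.135 to 0.165 of the summed T cell level in pads with and 0.244 and 0.254 of it in pads without. In gonadal pads this ratio was 0.305 to 0.574. Genes of immature lymphocytes were close to 0 in all 6 pads: none of the 7 passed the filter, and Rag1 and Rag2, which cut receptor genes in marrow and thymus, did not exceed 0.00736 FPKM.

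Chemokine genes of lymphoid stroma were among the largest differences. Ccl21a, the T zone chemokine, stood at 124, 96.6, 90.4 and 163 FPKM in M6, M10, M5 and M12 and at 1.27 and 0.29 FPKM in M7 and M9, a difference of 6.62. The Ccl21 genes are near copies, and Ccl21b was listed at 0 in all 6 pads, so the split between copies is uncertain. Ccl19, the second ligand of Ccr7, stood at 18.1, 8.63, 15.5 and 22.1 FPKM against 0.16 and 0.0648. Cxcl13, the follicle chemokine, stood at 35.2, 22.3, 28.0 and 31.6 FPKM against 3.03 and 0.68. These 3 chemokines were lowest, among pads with, in M5 for Ccl21a and in M10 for Ccl19 and Cxcl13. In gonadal pads Ccl21a stood at 108 to 202 FPKM and Cxcl13 at 22.8 to 56.9 FPKM, whereas Ccl19 stood at 0.29 to 1.28 FPKM. The levels of Ccl21a and Cxcl13 alone therefore do not mark a node.

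Of the 7 stromal genes measured, 6 were higher without overlap by at least 1, with a median of 1.90. That median was 2.94 with a pseudocount of 0.1, 4.27 over genes of at least 2 FPKM and 2.79 or 2.81 without M6 or M12. Bst1, an ectoenzyme found on stroma and myeloid cells, ranged from 2.47 to 4.002 FPKM against 0.66 and 0.41. Madcam1, an addressin of follicular and marginal stroma, ranged from 0.60 to 1.48 FPKM against 0.28 and 0, and Tnfsf11, the ligand RANKL, from 0.44 to 1.13 FPKM against 0.013 and 0.0221. Il7, a survival factor for lymphocytes, differed by 0.52, at 0.69 to 1.07 FPKM against 0.45 and 0.49. Coch, at 0.18 to 0.99 FPKM against 0 and 0.0186, did not pass the filter.

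Glycam1 encodes a mucin of high endothelial venules and is also a milk protein gene. It stood at 35.5 FPKM in M6, 66.4 in M10, 22.0 in M5 and 38.5 in M12 and had no read in the 4 libraries of M7 and M9. The 4 pads with held 3688 reads, so the level was at least 617-fold higher than a floor of 3 reads over the group without. M10 was highest for Glycam1 although it was not highest for Cd79a: the ratio of Glycam1 to Cd79a was 0.89 in M10 and 0.31 to 0.35 in the other 3 pads. Of milk protein genes, Csn3 was at 0.11 to 0.57 FPKM in pads with and 0.17 and 0.42 in pads without. Wap was listed at 0 in all 6 pads. Of 5 mammary and glandular epithelium genes measured, 1 was higher by at least 1 without overlap, with a list median of 0.56. The part of such cells in the Glycam1 level was not tested.

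The other genes of the venule list were expressed at low level. Chst4, the sulfotransferase of these venules, was at 0.34 to 0.73 FPKM in pads with and listed at 0 in both pads without, under the filter. Chst2, a related enzyme, ranged from 0.97 to 1.44 FPKM against 0.50 and 0.56, and Fut7, a fucosyltransferase, from 0.44 to 1.24 FPKM against 0.22 and 0.0478. Ackr1, a chemokine-binding receptor of venules in many tissues, overlapped, at 5.11 to 8.41 FPKM against 6.75 and 4.71. C2cd4b did not exceed 0.0202 FPKM. Of the 4 venule genes measured, only Glycam1 was higher by at least 1 without overlap, and the list median was 0.84. Lymphatic vessel genes differed less: none of the 3 measured met the condition, with Lyve1 at 7.19 to 17.3 FPKM against 7.73 and 3.72, Pdpn at 2.97 to 6.06 against 3.41 and 2.22, and Flt4 at 1.30 to 2.31 against 1.45 and 2.05.

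Ligands and receptors that organise lymphoid tissue could be followed in pairs. Ltb, which encodes the membrane part of lymphotoxin, stood at 95.2, 64.0, 68.7 and 107 FPKM in M6, M10, M5 and M12 and at 2.10 and 2.11 FPKM in M7 and M9. Lta, its partner, ranged from 2.99 to 4.14 FPKM against 0.0652 and 0.0899. Their receptor Ltbr, made by stroma and many other cells, ranged from 39.9 to 43.3 FPKM against 45.5 and 48.0, a difference of -0.16. The ligand thus differed between classes in these pads and the receptor hardly did. Cxcr5, the receptor for Cxcl13, ranged from 6.90 to 11.5 FPKM against 1.10 and 0.74, and Il7r, the receptor for Il7, from 2.91 to 6.32 FPKM against 0.26 and 0.14. Tnfrsf13c, the receptor for the B cell survival factor BAFF, ranged from 10.8 to 16.3 FPKM against 0.16 and 0.19, while BAFF itself, Tnfsf13b, ranged from 1.47 to 2.99 FPKM against 1.42 and 1.26. Of 13 such genes 10 were higher by at least 1 without overlap, with a median of 2.85.

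**Figure D3:**
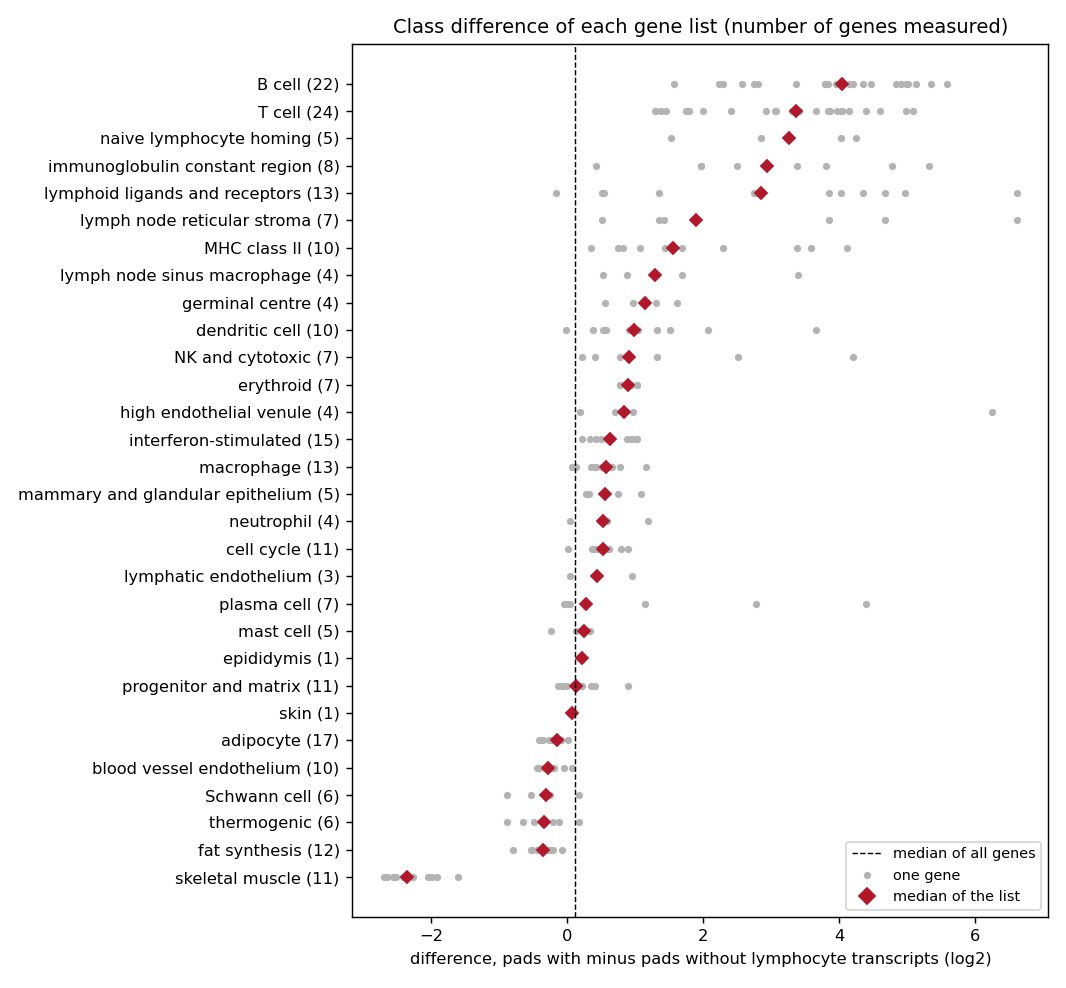
Difference between pads with and without lymphocyte transcripts (log2) for each gene list, with 1 grey point per measured gene, a red diamond at the list median and a dashed line at the median of all genes, 0.12. B cell (4.05) and T cell (3.37) medians lie at the top, adipocyte genes at -0.15 and skeletal muscle genes at -2.36.

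Of 10 class II genes 6 met the condition, with a median of 1.57. Cd74, the invariant chain, stood at 1361, 832, 637 and 912 FPKM in M6, M10, M5 and M12 and at 349 and 221 FPKM in M7 and M9. H2-Ab1, H2-Aa and H2-Eb1, the classical class II chains, overlapped between the classes. H2-Eb1 stood at 283, 350, 128 and 14.9 FPKM in M6, M10, M5 and M12 and at 155 and 54.3 FPKM in M7 and M9. M12 thus lay below both pads without lymphocyte transcripts while its Cd79a was second highest. The gonadal pad of M12 was lowest too, with H2-Eb1 at 8.35 FPKM against 126 to 280 FPKM in the gonadal pads of the other mice. H2-Aa stood there at 29.4 against 156 to 344 FPKM. The part of this mouse in class II differences was not tested. H2-Ob, H2-Oa and H2-DMb2, of which the first 2 encode the class II modulator H2-O of B cells, were named after their values were seen. H2-Ob ranged from 12.4 to 22.8 FPKM against 0.46 and 0.59, H2-Oa from 4.36 to 7.65 against 0.0732 and 0.12 and H2-DMb2 from 23.8 to 48.6 against 2.26 and 2.40.

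Other blood cell lists moved in part. Marco, a scavenger receptor of medullary sinus macrophages, stood at 14.9, 10.6, 0.98 and 16.4 FPKM in M6, M10, M5 and M12 and at 0.26 and 0.28 FPKM in M7 and M9. M5 thus had far less Marco than the other 3 pads at a Cd79a of 69.0 FPKM. Gonadal pads held Marco at 30.5 to 95.4 FPKM, so its level alone does not mark a node. Cd209b, a lectin of sinus macrophages, ranged from 7.32 in M5 to 27.7 FPKM in M6 against 7.10 and 3.37, while Cd209d and Siglec1 did not meet the condition. Among dendritic cell genes 4 of 10 met it, including Ccl22 at 5.12 to 14.3 FPKM against 0.28 and 0.16. Fscn1, Batf3 and Cd209a differed by 0.39 to 0.92. Ccl5, a chemokine of memory and cytotoxic T cells, ranged from 32.0 to 72.0 FPKM against 1.74 and 2.42, Nkg7 from 6.92 to 11.9 against 1.24 and 1.22, and Prf1 from 1.33 to 2.04 against 0.27 and 0.52, whereas Gzma overlapped.

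Plasma cell genes were low beside B cell genes. Mzb1, a chaperone of antibody-making cells that marginal zone B cells also express, ranged from 9.97 to 17.1 FPKM against 0.24 and 0.14. Jchain, which joins IgM and IgA polymers, ranged from 9.18 to 26.7 FPKM against 1.35 and 1.61, and Irf4 from 4.67 to 5.49 FPKM against 2.67 and 1.59. Sdc1, the plasma cell surface marker that epithelia also carry, overlapped, at 2.92 to 4.57 FPKM against 3.67 and 3.43. The list median was 0.27, with 3 of 7 genes meeting the condition. Rgs13, a signalling regulator of germinal centre B cells, was at 0.61 and 0.26 FPKM in control pads M6 and M10 and at 3.36 and 1.32 FPKM in knockout pads M5 and M12. Nuggc was at 0.43 and 0.30 FPKM against 1.27 and 1.27, and S1pr2 overlapped between genotypes.

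A few of the 632 genes outside the lists and segments are given here, chosen after their values were seen. Ptprcap, which encodes a protein bound to CD45, averaged 62.9 ± 8.67 FPKM (SD, n = 4 pads) against 1.31. Ly6d, a surface marker of B lineage cells, averaged 47.3 ± 11.98 FPKM (SD, n = 4) against 0.70. Coro1a, an actin regulator of blood cells, averaged 161 ± 31.7 FPKM (SD, n = 4) against 19.4, and Ptprc, or CD45, 33.2 ± 8.98 FPKM (SD, n = 4) against 3.77. Il21r, the receptor for the T cell cytokine IL-21, averaged 13.3 ± 2.51 FPKM (SD, n = 4) against 0.27.

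Fat cell and vessel lists had small differences, with medians of -0.15 and -0.28, and none of their 17 and 10 genes met the condition. Without a minimum difference, 4 of 10 blood vessel genes (Cdh5, Kdr, Tie1 and Esam) and 2 of 17 adipocyte genes (Pparg and Lpl) were lower with no overlap, where 3.77% of all genes were. These 6 were named after their values were seen, and they differed by -0.17 to -0.44. Fabp4, a lipid carrier, stood at 10219, 17290, 17875 and 14873 FPKM in M6, M10, M5 and M12 and at 20516 and 17172 FPKM in M7 and M9. Cfd, or adipsin, ranged from 3321 to 12542 FPKM in pads with and stood at 11812 and 4558 FPKM in pads without, lower in each knockout pad than in each control pad. Car3 differed by -0.10 and Lpl, the lipoprotein lipase, by -0.17. Macrophage genes had a median of 0.57 with 1 of 13 meeting the condition, which was Lyz2, lysozyme, at 311 to 700 FPKM against 301 and 133. Neutrophil, mast cell and cell cycle genes met it in none of 4, 5 and 11. Epithelial genes met it in 1 of 5, Epcam, at 0.44 to 1.43 FPKM against 0.14 and 0.18. Schwann cell genes had a median of -0.31 and interferon-stimulated genes 0.62, with 2 of 15 meeting the condition.

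Of the 11 genes lower in pads with lymphocyte transcripts, most are muscle genes. Tcap, a protein of the sarcomere's Z-disc, stood at 11.5, 1.68, 4.38 and 0.25 FPKM in M6, M10, M5 and M12 and at 16.9 and 14.2 FPKM in M7 and M9. Apobec2, Mb, Myh1, Smpx, Hrc, Csrp3, Actn2 and Ckmt2 are also known from muscle and differed by at least 1 log2 unit, up to -1.93 for Apobec2. Ppp1r3b, which targets a phosphatase to glycogen, stood at 11.8, 18.8, 28.2 and 29.0 FPKM against 48.1 and 61.0, and Smtnl2 differed by -1.07. The whole muscle list was uneven within the class: its sum was 811 FPKM in M6 and 8.60 in M12, against 748 in M7 and 376 in M9. Acta1, muscle actin, stood at 278, 36.6, 40.5 and 2.57 FPKM in M6, M10, M5 and M12 and at 242 and 108 FPKM in M7 and M9. Without M6 the count of lower genes was 54, without M7 35 and without M9 45. The part of muscle in the class difference was not tested.

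Red cell genes went with M6 and M10. Their sum was 2298 to 10525 FPKM in pads with and 2359 and 3059 in pads without. Hbb-bs, a beta globin whose near copies may share reads, stood at 5382 and 5703 FPKM in control pads M6 and M10, at 1351 and 1514 in knockout pads M5 and M12, and at 1788 and 1290 in M7 and M9.

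The genotype played no part in choosing the classes, so knockout and control could be tested in the 6 inguinal pads with lymphocyte class as a term. Because the classes are balanced over genotypes, in limma's fit the term leaves each fold change as it was and changes only its error. With limma, 59 genes were higher (0.433%) and 225 lower (1.65%) in knockout pads at a Benjamini-Hochberg adjusted p below 0.05, together 2.09% of 13621 genes. At an unadjusted p below 0.05 there were 3105. Without the term, 0 genes were higher and 3 lower (0.022%), with 2024 at an unadjusted p below 0.05. The same 3 genes, Mmd2, Prtn3 and Gm12725, were among the 284. The counts rested on single mice: leaving out M10 left 1 call, and leaving out M5, M12, M7, M9 or M6 left 22, 29, 41, 49 or 78. By edgeR's quasi-likelihood test on the rebuilt counts, 320 genes were called with the term and 2 without. By DESeq2, 1194 were called with it and 661 without. With no filter on low values limma called 6.

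**Figure D4:**
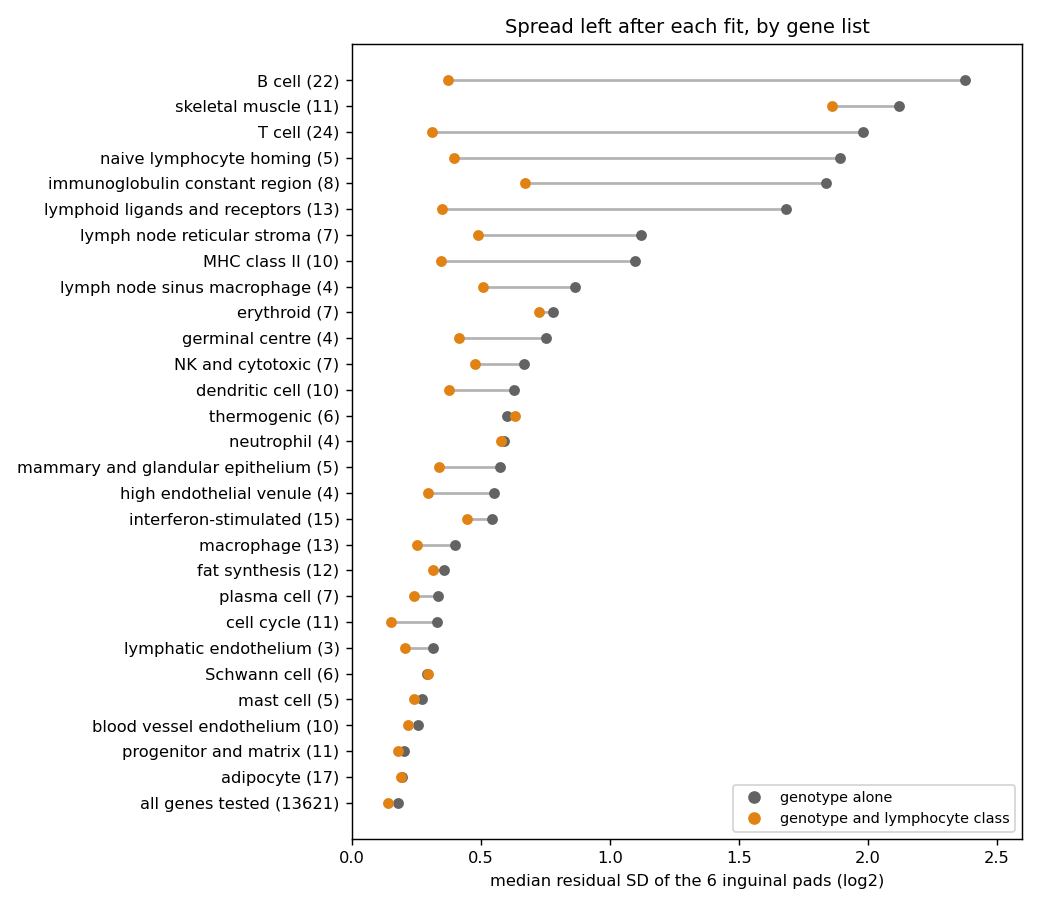
Median residual SD (log2) of each gene list over the 6 inguinal pads after a fit of genotype alone (grey) and after a fit of genotype and lymphocyte class (orange), for lists with at least 3 measured genes. B cell genes go from 2.38 to 0.37 and all genes from 0.18 to 0.14, while adipocyte genes stay at 0.19 in both fits.

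The spread left within genotypes fell most in lymphocyte lists when the class was a term. The median residual SD of the 22 B cell genes was 2.38 with genotype alone and 0.37 with the class, and that of the 24 T cell genes was 1.98 and 0.31. These genes follow the values that set the classes, so the drop is a description. Across all genes the median went from 0.18 to 0.14, and for adipocyte genes it was 0.19 in both fits. With the class in the fit, none of the 22 B cell genes and none of the 24 T cell genes passed by genotype, with smallest limma adjusted p-values of 0.293 and 0.236. Since 2.09% of all genes were called and the class was set by a B cell gene, these counts are not a result about the lists. Their median differences between knockout and control were -0.00 and 0.03, beside -0.10 for all genes.

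Genes lower in knockout pads included members of the macrophage, class II and matrix lists. H2-DMb1, which loads peptides onto class II molecules, stood at 33.4, 31.2 and 18.2 FPKM in control pads M6, M10 and M7 and at 12.9, 11.5 and 7.40 FPKM in knockout pads M5, M12 and M9. It fell by 1.33 ± 0.08 log2 units (SE, limma adjusted p = 0.00846), and its adjusted p without the term was 0.162. Each knockout pad was below every control pad, though the control pad without lymphocyte transcripts was nearer to the knockout pads. Of 13 macrophage genes 6 were lower, where 1.65% of all genes were: Lyz2 (fell by 1.07 ± 0.11, limma adjusted p = 0.0207), C1qa, C1qb, C1qc, Itgam and Adgre1. Of 10 class II genes, H2-DMb1 and H2-Ab1 were lower. Of 11 progenitor and matrix genes 4 were lower, Fn1, Ly6a, Col1a2 and Col1a1, with a list median of -0.60. Lyve1, Cd209d and Batf3, 1 gene each of the lymphatic, sinus macrophage and dendritic cell lists, were also lower. None of these lists had a call without the class term. Muscle and erythroid genes had medians of -2.30 over 11 genes and -1.67 over 7 for knockout minus control, with none called (smallest limma adjusted p 0.222 and 0.0789), and their part in the genotype calls was not tested.

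S100a4, a calcium-binding protein of fibroblasts and leukocytes, stood at 156, 132 and 62.8 FPKM in M6, M10 and M7 and at 45.2, 53.5 and 21.0 FPKM in M5, M12 and M9. It fell by 1.54 ± 0.10 (SE, adjusted p = 0.00984), against 0.233 without the term. Every knockout pad was below every control pad. H2-Q7, a class Ib molecule with near copies that may share reads, stood at 28.8, 28.7 and 11.7 FPKM against 14.6, 15.04 and 5.75. Here control pad M7 lay below knockout pads M5 and M12, and only within a class was every knockout pad lower (fell by 0.94 ± 0.07, adjusted p = 0.0109, against 0.444 without the term).

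Of the named genes, Mmd2, Prtn3 and Gm12725 passed with and without the term. Mmd2, of the progestin and adipoQ receptor family, stood at 60.8, 70.4 and 34.0 FPKM in M6, M10 and M7 and at 1.99, 1.85 and 2.002 FPKM in M5, M12 and M9, with an adjusted p of 0.00572 with the term and 0.0220 without (limma). Prtn3, a serine protease of granulocytes, was lower by the same measure (fell by 3.44 ± 0.18, adjusted p = 0.00596). Akr1cl, an aldo-keto reductase, fell by 5.72 ± 0.40 and Gpx3, a secreted glutathione peroxidase, by 2.68 ± 0.21. Cdh11, a fibroblast cadherin, fell by 1.43, Ifitm6 by 1.39 and the unnamed gene model Gm12725 by 1.46. Foxo1 fell by 1.86 ± 0.18 (adjusted p = 0.0190 with the term and 0.129 without).

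Genes higher in knockout pads included enzymes of fat synthesis, 4 of 12 on that list, where 0.433% of all genes were higher. Acss2, which makes acetyl-CoA from acetate, stood at 148, 177 and 182 FPKM in M5, M12 and M9 and at 42.4, 49.5 and 74.8 FPKM in M6, M10 and M7 (1.63 ± 0.14, adjusted p = 0.0156). Acly, ATP citrate lyase, stood at 759, 841 and 813 FPKM against 209, 263 and 388 (1.53 ± 0.18, adjusted p = 0.0261). Both genes were above every control pad in each knockout pad, and both control values were highest in M7, the pad without lymphocyte transcripts. Me1 and Fasn were the other members called. Tmem179, Tlcd2, Gsta3, Aldh1a7, Bcar3, Rilp and Mup3, whose family copies may share reads, were higher by 0.62 to 1.51.

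Igkv1-117 was the only antigen receptor segment called. It stood at 32.3 and 30.7 FPKM in knockout pads M5 and M12, 13.8 and 11.9 in control pads M6 and M10, 0.69 in M9 and 0.0807 in M7, a difference of 1.19 ± 0.10 (SE, limma adjusted p = 0.0156). Genotypes separated only within a class. In the 4 pads with lymphocyte transcripts alone, 31 of 13779 genes were called, or 0.225%, of which 3 were higher (0.0218%) and 28 lower (0.203%), and 22 of these were among the 284. These germinal centre genes did not pass in the 6-pad fit: Rgs13 differed by 1.03 ± 0.42 (adjusted p = 0.214) and Nuggc by 0.72 ± 0.23 (adjusted p = 0.142). Glycam1 differed by -0.49 ± 0.32 (adjusted p = 0.406) and Cxcl13 by -0.47 ± 0.36 (adjusted p = 0.475).

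Gonadal pads of the same mice, which the rule did not use, were then split by the inguinal class. Cd79a stood at 50.9, 32.5, 26.3 and 22.7 FPKM in the gonadal pads of M6, M10, M5 and M12 and at 23.7 and 32.1 FPKM in those of M7 and M9. The groups overlapped, and both mice whose inguinal pads lacked lymphocyte transcripts had them in gonadal fat. With genotype as a term, limma called 0 of 14851 genes (0%) by inguinal class, with 221 at an unadjusted p below 0.05. By edgeR 0 were called, with 246 at an unadjusted p below 0.05, and by DESeq2 87. Without M5, limma called 5. All 22 B cell genes were slightly higher in mice of the class with, by a median of 0.26. Of all 14851 genes 8908 were higher there, and the median of all genes was 0.04. None of the 22 passed (smallest limma adjusted p = 0.995), and genes of 1 cell type move together, so their count is not a result. T cell genes had a median of -0.02 over 20 genes. Epididymal genes were uneven in these pads, at summed levels of 444, 2359 and 5980 FPKM in M6, M10 and M12 and of 0.66, 1.43 and 1.25 FPKM in M5, M7 and M9, and their part was not tested.

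**Figure D5:**
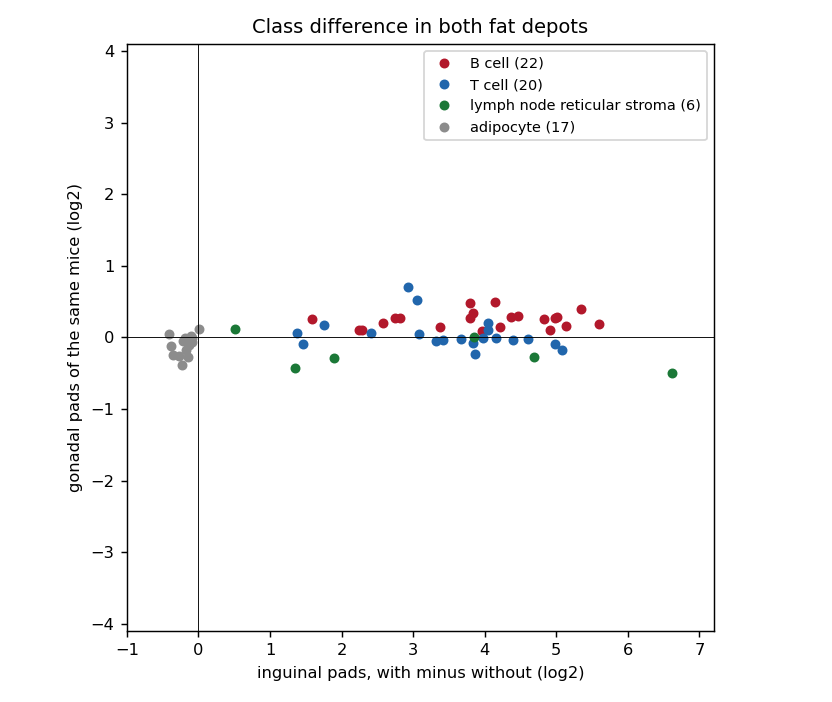
Difference between mice whose inguinal pads held and lacked lymphocyte transcripts (log2), in inguinal pads on the horizontal axis and in gonadal pads on the vertical axis, 1 point per gene of 4 lists. B cell genes reach 5.59 on the inguinal axis and stay between 0.09 and 0.50 on the gonadal axis.

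Ratios between lymphocyte transcripts could be set side by side in the 2 depots of the 4 mice with both. The summed T cell to B cell ratio was 0.74 to 0.92 in inguinal pads and 0.36 to 0.55 in gonadal pads. The ratio of antibody constant regions to B cell genes was 1.58 to 1.97 in inguinal and 20.8 to 29.5 in gonadal pads. Glycam1 was 0.31 to 0.89 of Cd79a in inguinal pads and 0.00439 to 0.0167 in gonadal pads, and Ccl19 was 0.12 to 0.22 against 0.0109 to 0.0251. Ccl21a, Cxcl13 and the summed stromal list were higher relative to B cell genes in the gonadal pad of each of these mice. Ccl21a was 1.07 to 1.48 of Cd79a in inguinal and 2.12 to 6.21 in gonadal pads, and Cxcl13 was 0.286 to 0.406 against 0.681 to 2.16. The stromal to B cell ratio was 0.364 to 0.453 in inguinal and 0.758 to 1.82 in gonadal pads. No test is given, because the mice were chosen by inguinal Cd79a, which enters each of these ratios.

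Heavy chain segment Ighv11-2 and kappa segment Igkv14-126, a pairing known from B-1a cells of body cavities, were chosen after their values were seen. Ighv11-2 took 25.4%, 3.53%, 23.0% and 13.9% of heavy variable reads in the gonadal pads of M6, M10, M5 and M12. In inguinal pads of the same mice it took 0.303%, 0%, 0.0999% and 0.142%, with an exact 95% upper bound of 0.66% in M6 and 0.34% in M10, where 0 of 1081 reads were seen. Igkv14-126 took 24.6%, 3.44%, 23.1% and 14.01% of kappa variable reads in gonadal and 0.40%, 2.43%, 0.39% and 0.23% in inguinal pads. Intervals cover counting error only, since reads are not independent molecules.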

How the data were processed

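Inguinal and gonadal fat of FoxO1 knockout and floxed control mice was profiled by RNA-seq. RNA was prepared with a Qiagen RNeasy kit and libraries with a NEBNext Ultra kit, per the labels' protocols. CASAVA, STAR and build mm10 are named in the submitters' processing notes without versions. No source names the counting tool or strand setting, so overlapping genes may share reads. The authors deposited FPKM, with gene lengths, for 35275 genes and 24 libraries. Their separate tables of changed genes hold raw counts, by their headers as deposited. Counts of at least 50 gave each library's total, and with it FPKM became whole reads for every gene (100% whole within 0.001). Coordinates are those of the deposited table.

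Libraries were assigned to groups by name: f was read as floxed, z as knockout, s as inguinal and e as gonadal. The names carry a mouse number, and the 2 libraries of a pad were averaged, so the pad is the replicate. Total reads per library were 14953657 to 25438811, and the 2 libraries of a pad differed beyond sampling noise.

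The members, gene lists and tests were chosen with earlier results of these data known. The class contrast has no test: genes with a mean of at least 0.5 FPKM over the 6 pads counted as higher or lower when the classes did not overlap and differed by at least 1 on log2(FPKM + 0.5). Genotype (with lymphocyte class as a term) and gonadal pads by inguinal class (with genotype as a term) went into limma 3.58.1 (R 4.3.3) (two-sided, Benjamini-Hochberg adjusted p below 0.05), with edgeR 4.0.16 and DESeq2 1.42.0 on the rebuilt counts as alternatives. The limma script was tested on simulated data. Of 312 list genes in 31 lists, 309 were found, 3 of them under another symbol. Genes were named by rule: Foxo1, Cd79a, Ms4a1, all members of the stromal, venule and ligand lists, up to 4 members of other lists by level, the 15 largest differences each way, and the 10 smallest p-values each way of each test. Promoters came from RefSeq, GRCm38.p6. Alternatives varied the pseudocount, filter, threshold, tool, class term and mice. Some genes that the rule names are not reported here.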

Additional observations from a re-analysis of the deposited data

Results flagged for a closer look

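Erythroid genes were higher in control pads with lymphocyte transcripts and slightly lower in knockout pads with them, each against 1 pad: the mean log2 level of 7 genes was 7.90 and 7.72 in control pads M6 and M10 against 5.92 in M7, and 5.49 and 5.57 in knockout pads M5 and M12 against 5.62 in M9. The control difference exceeded the knockout difference by 1.97 log2 units, which was not tested.

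The single epididymal gene measured in inguinal fat, Rnase10, had the same signs, with a gap of 0.62 between the genotypes' differences that was not tested, at levels of 0.19 to 2.18 FPKM.

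Blood vessel genes of M5 lay apart from the other 3 pads with lymphocyte transcripts: the mean log2 level of 10 genes was 3.93 in M5 and 4.35 to 4.38 in M6, M10 and M12, a gap that is 0.943 of the whole range, above Dixon's 95% critical value for 4 samples. Chance gives such a gap in about 1 of 20 groups, and 30 lists were checked.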

How the results depend on the processing

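Of 885 genes higher in pads with lymphocyte transcripts, a mean of at least 2 FPKM left 570 and a difference of at least 2 log2 units 363; leaving out a mouse gave 806 to 1114. The 11 lower genes became 6 with a pseudocount of 1, 5 at 2 FPKM or more, 1 at a difference of at least 2, 7 without overlap over single libraries, and 10 to 54 without a mouse. Of the list medians over these settings, 85 moved little, 15 moved more and 0 reversed: B cell genes lay at 3.35 with a pseudocount of 1 and 5.45 with 0.1, T cell genes at 2.76 and 4.32, homing genes at 2.59 and 4.45, stromal genes at 1.502 and 2.94. Venule genes lay at 0.84 in the main setting and at 1.47 with a pseudocount of 0.1. Over genes of at least 2 FPKM they lay at 3.22, from Glycam1 and Ackr1 alone, which differed by 6.25 and 0.19.

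The genotype counts stayed within 1.5 times with pseudocounts of 0.1 and 1 and at 2 FPKM or more. In place of 59 higher and 225 lower genes, the counts were 0 and 6 with no filter, 512 and 682 by DESeq2, 0 and 3 without the class term, 109 and 470 with the B cell mean as a continuous term, and 3 and 28 in the 4 pads with lymphocyte transcripts. By edgeR 112 were higher and 208 lower. Without the class term edgeR gave 0 and 2 and DESeq2 234 and 427; these 2 fits were chosen after seeing the data. Leaving out a mouse gave 0 to 21 higher and 1 to 57 lower. For gonadal pads by inguinal class, DESeq2 gave 65 and 22 in place of 0 and 0, and leaving out a mouse gave 0 to 5 higher, the 5 without M5. Why the tools differ was not tested. Over single named genes and settings, 230 calls held, 110 were lost and 0 reversed.

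No paired analysis was possible because knockout and control pads come from different mice and the library names do not carry the sample numbers of the labels. With 2 pads without lymphocyte transcripts, 1 per genotype, the class difference has no spread within a genotype on that side.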
